A study of Mus musculus with 2 samples.

Results

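Natural killer (NK) cells from the spleens of wild-type mice were chosen by the measured transcripts of Itgam (at least 1) and Cd27 (0) and divided by whether they also held a transcript of Klrg1. There were 2491 such cells (Itgam-only cells) among the 16384 barcodes of 1 droplet library, 658 with a Klrg1 transcript (Klrg1-positive) and 1833 without one (Klrg1-negative). A barcode counted as an NK cell when it had 500 to 6000 detected genes, at most 10% mitochondrial UMIs (unique molecular identifiers, each standing for 1 captured transcript), a UMI of at least 2 of Ncr1, Klrb1c and Klre1, and none of Trac or Cd79a. It also had to carry exactly 1 of 3 lipid tags. Every cell was then thinned at random to 2500 UMIs, so that Itgam, Cd27 and Klrg1 were read at equal depth. The 8 genes of these rules chose the cells, so their levels are described and were not tested.

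The study concerns Kir6.1, a potassium channel subunit encoded by Kcnj8, in NK cell development. NK cells were taken from dissociated spleens by magnetic removal of other lineages, per the labels' protocols, which state neither age nor strain. The 3 tags combined cells of different mice, but no label ties a tag to 1 mouse. The tags, called tag 1, tag 2 and tag 3, were used as 3 replicates, each holding both classes. With tag as block, p-values measure only how the difference between compared cells varies from tag to tag, a spread that may be technical. All values come from sample 1 of the series, and sample 2 was not analysed here.

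Mouse NK cells mature in the spleen and bone marrow from cells that display CD27, through cells that display both CD27 and CD11b (encoded by Itgam), to cells that display CD11b alone. KLRG1 is an inhibitory receptor that binds cadherins and appears on part of the CD11b cells, and it is widely used as a mark of the last stage. It carries an inhibitory motif in its cytoplasmic tail and belongs to the C-type lectin-like receptors, as do the Ly49 receptors encoded by the Klra genes.

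Klrg1 itself lies on the minus strand of chromosome 6 at 122270596 to 122282882 (GRCm38, which is mm10) and was most often found in the Itgam-only class. A Klrg1 UMI was present in 28.2%, 26.1% and 24.9% of Itgam-only cells in tags 1, 2 and 3, a mean of 26.4% ± 1.63 (SD, n = 3). Among cells of the same rule, the share was 8.36% ± 2.21 in Cd27-only cells, 13.9% ± 3.51 in cells with both transcripts and 15.5% ± 2.31 in cells with neither. All 3 Itgam-only shares lay above all shares of the other classes. With 3 tags an exact paired permutation test cannot go below p = 0.25, so the order is a description. B cells of the same library, which should lack the gene, gave 0.752% (3 of 399 cells, exact binomial 95% interval 0.155 to 2.18, counting error only) at a median depth of 3945 UMIs, against 3821 in Itgam-only cells. These B cells held at least 2 Cd79a UMIs, another B cell marker and no UMI of Ncr1, Klrb1c or Klre1. Barcodes with transcripts of those NK genes were thus left out, so this share cannot stand for the rate of stray Klrg1 UMIs. T cells gave 2.58% (4 of 155 cells). Before thinning, the share in Itgam-only cells was 37.0%.

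**Figure D1:**
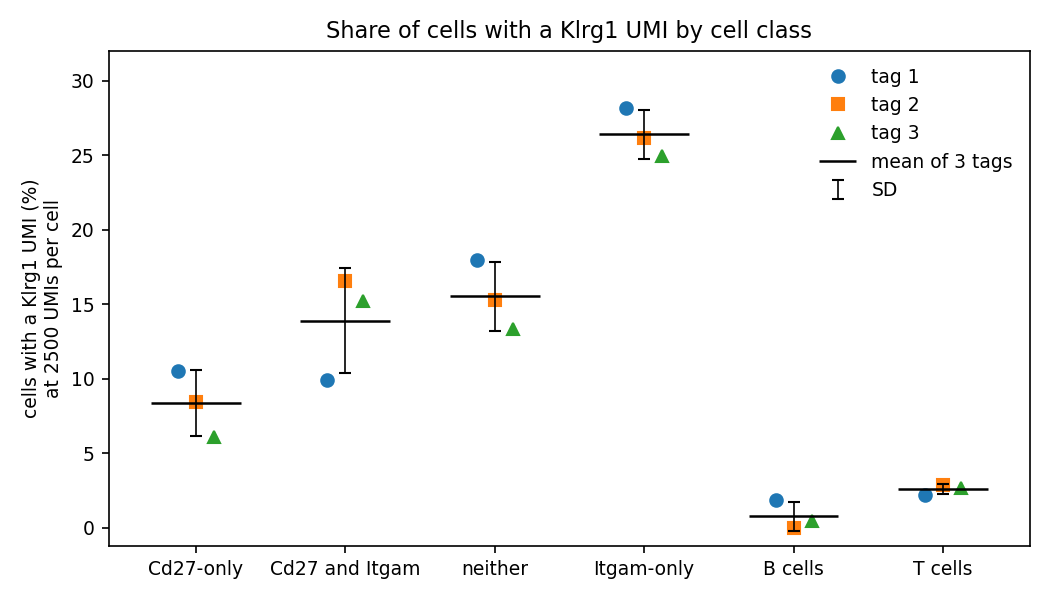
Share of cells with a Klrg1 UMI after thinning to 2500 UMIs per cell (y axis, percent) in the 4 classes of NK cells by Cd27 and Itgam and in B and T cells of the same library (x axis); points are tags, bars the mean of 3 tags and whiskers the SD. The 3 Itgam-only points lie between 24.9 and 28.2%, above all other points.

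The division into positive and negative rested on few molecules. Of the positive cells, 70.1% held exactly 1 Klrg1 UMI, 21.1% held 2 and 8.81% at least 3, with a maximum of 5. Just under the threshold, 264 of the 1833 negative cells (14.4%) had a Klrg1 UMI that the thinning removed. Klrg1 stood at 442, 429.6 and 473 CPM (UMIs before thinning, scaled to 1000000 gene UMIs of the same cells) in the positive cells of tags 1, 2 and 3 and at 45.4, 48.7 and 38.2 CPM in the negative cells. Itgam, which every cell of both classes had to hold, was at 529.8 ± 43.7 and 458 ± 21.6 CPM. Cd27, which could come back only from UMIs lost in the thinning, was at 18.4 ± 3.85 and 37.5 ± 4.82 CPM. The 3 NK genes of the rule were each 1.12 to 1.14 times as high in the positive class.

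Positive cells held a lower share of ribosomal transcripts, and within each of the 3 tags they were also slightly lower in depth, mitochondrial share and share of dividing cells. Sums over positive cells held 695523 to 1138254 UMIs per tag and sums over negative cells 2356822 to 3446962. Median depth was 3656 ± 221 UMIs per cell in the positive and 3890 ± 194 in the negative class, and median mitochondrial shares were 1.197% ± 0.0541 and 1.25% ± 0.0496 (SD, n = 3). Ribosomal protein transcripts made up a median 14.3% ± 0.239 of UMIs in positive and 15.6% ± 0.215 in negative cells, with no overlap between tags. Cells with a UMI of Mki67 or Top2a, genes of dividing cells, were 6.43% ± 1.08 and 7.79% ± 0.527 of the 2 classes. The part of the ribosomal share in the results was not tested beyond an alternative without the cells poorest in it. A cell without a UMI of a gene may still express it, and a difference between sums cannot tell more expressing cells from more RNA per cell.

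Of 9314 genes tested with edgeR's quasi-likelihood test (tag as block, Benjamini-Hochberg adjusted p under 0.05), 283 differed (3.04%): 100 were higher in the Klrg1-positive cells (1.07%) and 183 lower (1.96%). Across all tested genes the median log2 fold was 0.0065. Positive and negative CPM did not overlap across the 3 tags for 6.56% of the tested genes in the higher and 7.72% in the lower direction. All adjusted p-values below come from this test unless another comparison is named. Its counts depended on the tags and on the choice of cells: without tag 1, 38 genes were higher and 94 lower, and with at least 2 Itgam UMIs per cell, 27 and 36.

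Among the Ly49 receptor genes, close copies moved in opposite directions, and Klra9 had the smallest p of all genes tested. Ly49 receptors bind MHC class I molecules and set the activation threshold of NK cells. Klra9, which encodes Ly49I, stood at 1062, 905 and 1316 CPM in the positive cells of the 3 tags and at 601, 511 and 709 CPM in the negative cells. The lowest positive value lay above the highest negative value (log2 fold 0.85, SE 0.045, adjusted p = 8.1e-18 by edgeR). Klra3, which encodes Ly49C, stood at 434, 301 and 457 CPM against 289, 275 and 308 CPM, higher in 3 of 3 tags although the ranges overlapped (log2 fold 0.43, SE 0.070, adjusted p = 3.9e-05 by edgeR). Klra4, which encodes the activating receptor Ly49D, went the other way, at 1653, 1428 and 1281 CPM in positive and 1759, 1818 and 1919.5 CPM in negative cells, without overlap (log2 fold -0.32, SE 0.048, adjusted p = 7.7e-06 by edgeR).

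The 250 bases before the RefSeq start of these 3 genes are shown because Klra9 and Klra3, which rose, and Klra4, which fell, have related start regions. All 3 lie on the minus strand of chromosome 6, and Klra8, which did not pass, lies between Klra4 and Klra9. The sequences run 5′ to 3′ on the gene's strand, from GRCm38.p6, and capitals mark bases with no identical partner in a global alignment with Klra9.
Klra9, chr6:130193113-130193362: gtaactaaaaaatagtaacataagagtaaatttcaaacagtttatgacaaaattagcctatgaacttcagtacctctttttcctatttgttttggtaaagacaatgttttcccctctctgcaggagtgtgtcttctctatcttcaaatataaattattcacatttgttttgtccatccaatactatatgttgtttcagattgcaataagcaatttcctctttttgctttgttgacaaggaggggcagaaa
Klra3, chr6:130337627-130337876: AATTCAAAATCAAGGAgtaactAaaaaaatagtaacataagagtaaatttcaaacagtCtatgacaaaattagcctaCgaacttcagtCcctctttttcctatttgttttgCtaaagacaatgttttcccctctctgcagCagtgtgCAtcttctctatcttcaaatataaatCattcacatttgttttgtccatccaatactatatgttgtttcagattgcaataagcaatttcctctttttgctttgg
Klra4, chr6:130067272-130067521: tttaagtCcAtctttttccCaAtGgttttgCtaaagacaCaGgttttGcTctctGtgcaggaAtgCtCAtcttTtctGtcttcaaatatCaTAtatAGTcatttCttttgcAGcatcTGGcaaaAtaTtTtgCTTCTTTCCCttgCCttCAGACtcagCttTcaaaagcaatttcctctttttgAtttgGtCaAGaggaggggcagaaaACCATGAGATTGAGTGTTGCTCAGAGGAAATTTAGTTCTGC
Klra3 matched Klra9 at 225 of 231 aligned bases (97.4%), and Klra4 matched it at 153 of 183 (83.6%). The windows of 3 genes describe these genes alone, and no relation between the start region and the level was tested. Ly49 genes are close copies, and how reads that fit several copies were counted is not given in the sources used here, so the values of single Klra genes are uncertain.

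Of 19 tested Ly49, NKG2 and related lectin-like receptor genes, 4 were higher and 2 lower, with a median log2 fold of 0.10. Besides Klra9 and Klra3, the higher ones were Klrb1b, which encodes the inhibitory receptor NKR-P1B, and Klrd1, which encodes CD94, the partner chain of the NKG2 receptors. Klrb1b stood at 397, 404 and 492 CPM against 287, 271 and 294 CPM (log2 fold 0.60, SE 0.064, adjusted p = 4.8e-09 by edgeR), and all positive values exceeded all negative ones. Klrd1 differed by a log2 fold of 0.15 (edgeR adjusted p = 0.031). Klra1, which encodes Ly49A, was the other lower gene, at 114 against 163 CPM (-0.46, edgeR adjusted p = 0.035). Klra8, which encodes the activating receptor Ly49H, had a log2 fold of 0.10 (edgeR adjusted p = 0.24), and Klrc1, which encodes NKG2A, 0.23 (edgeR adjusted p = 0.11); neither passed. The calls of Klra4 and Klra3 were lost without the tag block, that of Klra4 also with DESeq2 and that of Klra3 also without tag 1.

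Among 21 tested genes of other NK receptors and adaptors, 1 was higher and 4 were lower. Fcer1g, the signalling chain of several activating receptors, was higher by a log2 fold of 0.18 (edgeR adjusted p = 4.9e-04), a call lost under 7 of 22 alternatives. The lower genes were Slamf6, Crtam, Cd160 and Cd7, with log2 folds of -2.12, -1.06, -0.94 and -0.59. Slamf6, a self-binding receptor of the SLAM family, was at 4.15, 4.39 and 2.88 CPM in positive and 14.3, 21.8 and 14.9 CPM in negative cells, with no overlap.

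Most genes known to mark late NK cells were higher in the Klrg1-positive cells. Of 16 tested, 10 were higher and 0 lower, with a median log2 fold of 0.37. Cx3cr1, the receptor for fractalkine on endothelium, had the largest fold of this list, at 91.3, 132 and 122 CPM in the positive cells of the 3 tags and 46.5, 53.1 and 30.97 CPM in the negative cells. Its ranges did not overlap, and the fold was 2.60 (log2 fold 1.38, SE 0.13, adjusted p = 4.9e-10 by edgeR). Ly6c2, a surface protein of mature lymphocytes and monocytes, was at 822, 590.4 and 853 CPM against 502, 364 and 381 CPM, again without overlap (log2 fold 0.85, SE 0.061, adjusted p = 5.2e-14 by edgeR). Spn, which encodes CD43, and Itgb2, which encodes the integrin chain that pairs with CD11b, were higher by 0.46 and 0.30, Klf2 by 0.24 and Irf8 by 0.38 on the log2 scale.

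S1pr5, the receptor by which mature NK cells leave lymphoid tissue, was at 195, 183 and 219 CPM in positive and 134, 161 and 168 CPM in negative cells. Each positive value exceeded each negative one, but the call (log2 fold 0.37, SE 0.085, adjusted p = 0.0058 by edgeR) was lost under 6 of 22 alternatives, among them DESeq2 and the fits without tag 1 or without the tag block. The late genes that did not pass included Itgal, at a log2 fold of 0.03, Fcgr3 at 0.07, Bhlhe40 at 0.15 and S100a4 at 0.30.

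Genes known from early NK cells were lower in the positive class. Of 18 tested, 15 were lower and 0 higher, with a median log2 fold of -1.05. Emb, which encodes the cell-surface glycoprotein embigin, had the smallest p of the genes that fell, with 133, 106 and 63.3 CPM in the positive cells of tags 1, 2 and 3 and 425, 232 and 252 CPM in the negative cells. Every positive value lay below every negative one (log2 fold -1.53, SE 0.098, adjusted p = 2.5e-15 by edgeR). Xcl1, a chemokine that draws cross-presenting dendritic cells, was at 137, 129 and 83.4 CPM against 285, 227 and 228 CPM, also without overlap (log2 fold -1.04, SE 0.093, adjusted p = 3.7e-11 by edgeR). Ctla2a, which encodes a cathepsin inhibitor, was at 323, 374 and 244 CPM against 569.7, 639 and 531 CPM (log2 fold -0.87, SE 0.062, adjusted p = 5.2e-14 by edgeR), and the ranges were apart.

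Kit, the stem cell factor receptor, stood at 8.30, 6.15 and 14.4 CPM in positive and 35.7, 20.3 and 36.1 CPM in negative cells (log2 fold -1.71, SE 0.27, adjusted p = 1.9e-05 by edgeR). The classes did not overlap, but the call was lost with cells thinned to 1500 UMIs and with at least 2 Klrg1 UMIs in the positive class. Ltb, which encodes lymphotoxin beta, was at 19.7, 28.99 and 31.6 CPM against 74.1, 68.5 and 92.9 CPM (log2 fold -1.52, SE 0.16, adjusted p = 4.8e-09 by edgeR). Cd28, the costimulatory receptor, was at 43.6, 48.3 and 41.7 CPM against 87.3, 92.5 and 103 CPM (log2 fold -1.05, SE 0.13, adjusted p = 3.8e-07 by edgeR). Neither gene's ranges overlapped. The lower early genes also included Crtam, Myb, Cxcr3, Il7r, Thy1, Tcf7, Slamf6 and Cd160, while Tnfsf10, Il2rb and Cd226 did not pass (log2 folds -0.10, -0.03 and 0.29).

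**Figure D2:**
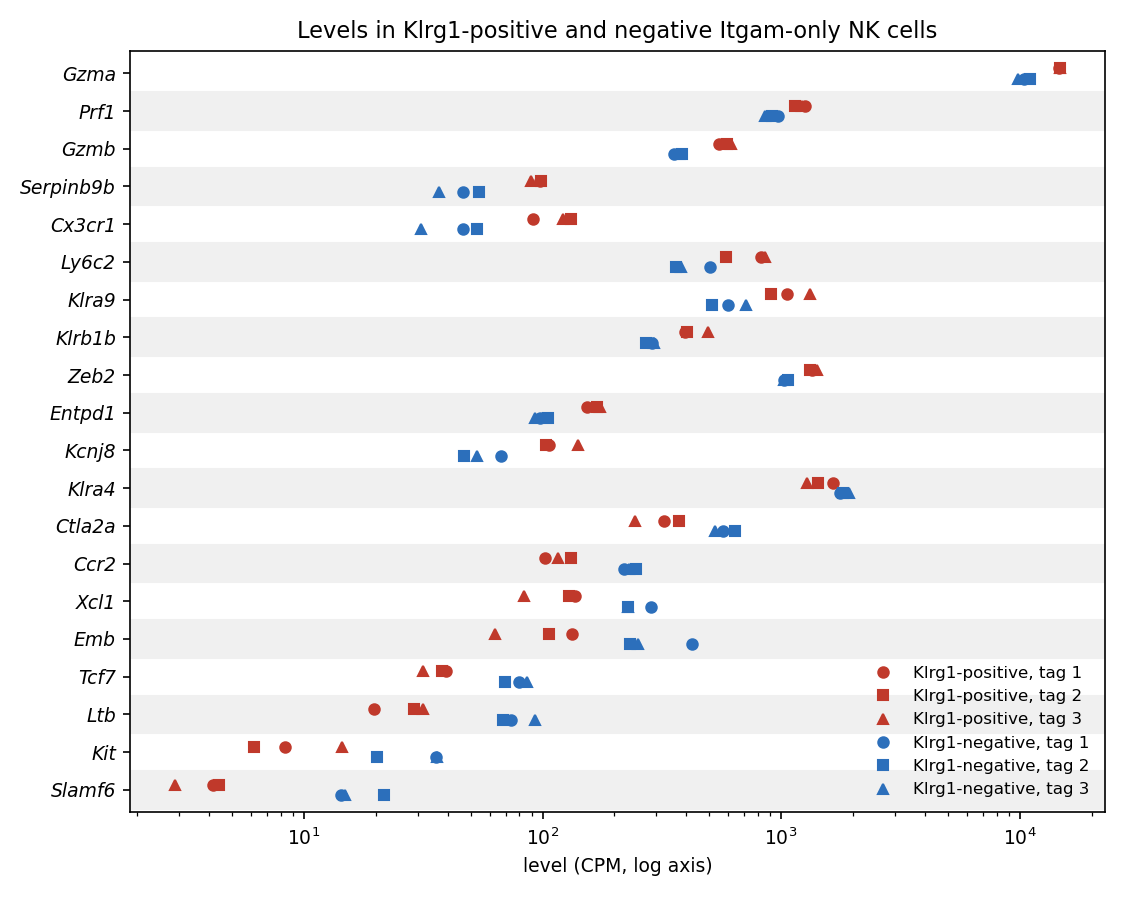
Levels of 20 named genes (x axis, CPM on a log axis) in Klrg1-positive (red) and Klrg1-negative (blue) Itgam-only NK cells; each point is the sum over the cells of 1 tag, and the marker gives the tag. For all 20 genes the 3 red points lie on 1 side of the 3 blue points, from Gzma at 9862 CPM or more to Slamf6 at 21.8 CPM or less. The 20 were picked from genes that passed, so their separation describes the choice, and Klra3 and Dusp2, which passed with overlap, are not shown. Over all tested genes, the classes did not overlap for 6.56% in the higher and 7.72% in the lower direction.

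Granule genes differed in 1 direction: of 21 tested, 7 were higher in the positive cells and 0 lower, with a median log2 fold of 0.14. Gzma, which encodes granzyme A and was among the most abundant transcripts, was at 14555, 14818 and 14687 CPM in the positive cells of the 3 tags and 10449, 11011 and 9862 CPM in the negative cells. The classes were far apart relative to their spread, with a fold of 1.41 (log2 fold 0.50, SE 0.028, adjusted p = 2.2e-17 by edgeR). Gzmb, which encodes granzyme B, stood at 548, 592 and 617 CPM against 356, 385 and 375 CPM (log2 fold 0.66, SE 0.055, adjusted p = 7.4e-12 by edgeR). Prf1, which encodes the pore-forming protein perforin, stood at 1262, 1144 and 1219 CPM against 973, 914 and 856 CPM (log2 fold 0.40, SE 0.043, adjusted p = 4.8e-09 by edgeR). In both genes all positive values lay above all negative ones.

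Serpinb9b, which encodes an inhibitor of granule proteases, had the largest fold of the tested granule genes, at 97.5, 98.4 and 89.1 CPM in positive and 46.5, 53.96 and 36.9 CPM in negative cells (log2 fold 1.04, SE 0.13, adjusted p = 1.2e-07 by edgeR). Cma1, a chymase gene, was at 406 ± 15.3 against 272 ± 26.3 CPM and Nkg7, a granule membrane protein, at 3602 ± 92.4 against 2952 ± 118 CPM, with log2 folds of 0.58 and 0.29. Ctsc, the protease that activates granzymes, was higher by 0.37 (edgeR adjusted p = 0.0078). The granule docking and release genes of the list were among those that did not pass, with log2 folds of 0.08 for Unc13d, 0.06 for Stx11, -0.03 for Stxbp2 and -0.02 for Rab27a. Fasl, which encodes the death ligand, was at 0.09 (edgeR adjusted p = 0.72).

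Transcription factor genes went both ways: of 31 tested, 4 were higher and 4 lower. Zeb2, a repressor needed for late NK maturation, was at 1348, 1324 and 1408 CPM in the positive cells of the 3 tags and 1028, 1065 and 1029 CPM in the negative cells. The ranges were well apart (log2 fold 0.39, SE 0.041, adjusted p = 4.0e-09 by edgeR), and the call was lost only with at least 2 Itgam UMIs per cell. Tcf7, which encodes TCF-1, a factor of early NK cells, fell from 79.5, 69.3 and 86.1 CPM in the negative to 39.4, 37.8 and 31.6 CPM in the positive cells, without overlap (log2 fold -1.06, SE 0.15, adjusted p = 2.3e-06 by edgeR). Id2, which represses E proteins, was higher by a log2 fold of 0.36, and Tox and Myb were lower (log2 folds -0.43 and -1.36). Zeb1, the relative of Zeb2, was also lower (log2 fold -0.31, edgeR adjusted p = 0.015), opposite in direction to Zeb2.

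The T-box factor genes and Prdm1 did not pass. Tbx21, which encodes T-bet, was at 267, 271 and 267 CPM in positive and 225, 257 and 236 CPM in negative cells (log2 fold 0.17, SE 0.071, adjusted p = 0.28 by edgeR), higher in 3 of 3 tags without overlap. Eomes stood at 304, 278 and 303 CPM against 385, 337 and 303 CPM (log2 fold -0.22, SE 0.069, adjusted p = 0.082 by edgeR), with values that overlapped. Prdm1, which encodes Blimp-1, stood at 76.8, 116 and 96.3 CPM against 53.1, 84.1 and 90.4 CPM (log2 fold 0.38, SE 0.12, adjusted p = 0.07 by edgeR), also with overlap.

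Genes of migration differed in both directions, 6 higher and 4 lower of 21 tested. The chemokine receptor gene Ccr2 was at 103, 132 and 116 CPM in positive and 220.3, 247 and 231 CPM in negative cells (log2 fold -0.98, SE 0.088, adjusted p = 3.7e-11 by edgeR), the reverse of Cx3cr1, and neither gene's ranges overlapped. Among the receptors for sphingosine 1-phosphate, S1pr5 and S1pr4 were higher (log2 folds 0.37 and 0.46) and S1pr1 was lower (-0.91, edgeR adjusted p = 6.5e-04). The chemokine receptor gene Cxcr3 was lower (log2 fold -1.14), while the integrin gene Itga4 was higher (0.15). Itga1, an integrin gene of tissue-resident cells, had a log2 fold of 1.14 but did not pass (edgeR adjusted p = 0.072).

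Of 11 tested cytokine and chemokine genes, 2 were higher and 2 lower. Ccl5, a chemokine stored in granules, was at 17092, 18104 and 17102 CPM in positive and 12535, 13503 and 13517 CPM in negative cells, with no overlap (log2 fold 0.41, SE 0.026, adjusted p = 2.5e-15 by edgeR). Fgl2, which encodes a fibrinogen-like protein, was the other higher gene (0.44), and Xcl1 and Ltb were the lower ones. Ifng, which encodes interferon gamma, was at 115, 81.7 and 83.4 CPM against 142, 96.03 and 106 CPM, lower in 3 of 3 tags with overlapping ranges (log2 fold -0.29, SE 0.11, adjusted p = 0.18 by edgeR). Of 20 tested cytokine receptor and feedback genes, Il18rap, the accessory chain of the interleukin 18 receptor, and Ifngr1 were higher (log2 folds 0.37 and 0.20), and Il7r was lower (-1.35). The call of Il18rap was lost under 1 of 22 alternatives, that of Ifngr1 under 7 of 22 and that of Il7r under 8 of 21.

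Kcnj8, which encodes the pore subunit Kir6.1 of an ATP-sensitive potassium channel, was 2.09 times as high in the positive as in the negative cells. The gene lies on the minus strand of chromosome 6 at 142564837 to 142571614 (GRCm38). It stood at 107, 104 and 141 CPM in the positive cells of the 3 tags and 66.7, 47.0 and 53.04 CPM in the negative cells, with no overlap (log2 fold 1.07, SE 0.12, adjusted p = 4.2e-08 by edgeR), and the call held under all 21 alternatives that gave an adjusted p, which DESeq2 did not. A Kcnj8 UMI was found in 24.2% ± 2.56 of positive and 13.96% ± 1.11 of negative cells at equal depth (SD, n = 3). Kcnj8 was the single gene that passed among 7 tested potassium channel genes, whose median log2 fold was -0.20. Abcc9, which encodes the partner subunit SUR2, had 0 UMIs in positive and 1 in negative cells, and Abcc8, which encodes SUR1, had 0 in both, where 3 counts correspond to 1.07 CPM in positive and 0.358 CPM in negative cells.

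Of 6 tested ATP and adenosine genes, Entpd1 passed. It encodes CD39, which degrades extracellular ATP, and stood at 154, 169 and 174 CPM in positive and 97.3, 106 and 93.3 CPM in negative cells, all positive values above all negative ones (log2 fold 0.74, SE 0.096, adjusted p = 4.3e-07 by edgeR). Nt5e, which encodes the next enzyme of that pathway, CD73, was at 5.86 ± 4.11 and 10.5 ± 1.55 CPM (log2 fold -0.70, SE 0.42, adjusted p = 0.56 by edgeR). Among 17 tested genes of the S100, annexin and galectin list, 5 were higher and 0 lower. They were S100a6 (0.39), Lgals1, which encodes galectin-1 (0.28), S100a13 (0.25), S100a10 (0.19) and Ahnak (0.18). Ahnak is in the list but in none of these families. The call of Ahnak was lost under 12 of 22 alternatives and that of S100a10 under 3, while that of S100a6 was lost only with at least 2 Itgam UMIs per cell.

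Of the molecules on either side of the receptor, the ligand genes could not be tested and the 3 phosphatase genes did not pass. The cadherin genes Cdh1, Cdh2 and Cdh4, which include the known ligands, were too low to be tested, at 0.367 CPM or less in both classes. Inpp5d and Ptpn11, which encode the phosphatases SHIP-1 and SHP-2 that inhibitory motifs recruit, had log2 folds of -0.12 and 0.23, and Ptpn6, which encodes SHP-1, 0.11. Their edgeR adjusted p-values were 0.53, 0.62 and 0.86, with 0 genes at an unadjusted p under 0.05 and 0 calls with DESeq2, which gave no adjusted p for 2 of the 3.

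Ribosomal protein genes moved together by small amounts. Of 81 tested, 53 were lower and 0 higher, with a median log2 fold of -0.15. Rps19 had the smallest p of them, at 858 ± 60.1 against 1110.5 ± 52.7 CPM (log2 fold -0.36, SE 0.044, adjusted p = 7.6e-08 by edgeR), a call lost when the classes were read from unthinned counts. The calls of Rps28, Rpl12 and Rplp1 were lost there too, and also with at least 2 Itgam UMIs per cell. Of 17 tested immediate early genes, 5 were lower and 1 higher: Egr1 (-1.45), Nr4a1 (-0.80), Nr4a2 (-0.44), Jun (-0.41) and Fos (-0.29) fell and the phosphatase gene Dusp2 (0.33) rose. The call of Nr4a1 was lost under 6 of 21 alternatives, those of Nr4a2 and Jun each under 3 of 22 and that of Dusp2 under 1 of 22. Without cells that held other types' markers, 4 genes of the list were lower and 1 higher. Summed levels of the list ranged from 3873 to 7063 CPM over the tags in positive and from 4250 to 7295 CPM in negative cells, so they overlapped widely.

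Glycolysis genes gave 0 calls among 14 tested with edgeR, with 2 at an unadjusted p under 0.05, 1 in each direction, and 0 with DESeq2, which gave no adjusted p for 13 of them. Of 17 survival and death genes, Bcl2 alone passed (-0.27), and of 13 mitochondrially encoded genes mt-Co1 alone (-0.16); those calls were lost under 6 and 9 of 22 alternatives. Of 23 cell cycle genes, Cenpf and Ccnd2 passed as higher, but Cenpf was higher in 2 of 3 tags and reversed with another random draw of the thinning and the call of Ccnd2 was lost under 15 of 22 alternatives. Of 13 interferon-stimulated genes, Ly6e (-0.52) and Ifi27l2a (-2.13) were lower. Ifi27l2a had a UMI in only 0.628% of positive and 0.67% of negative cells, and its call was lost under 3 of 14 alternatives. Without cells that held other types' markers, 1 gene of this list was lower.

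**Figure D3:**
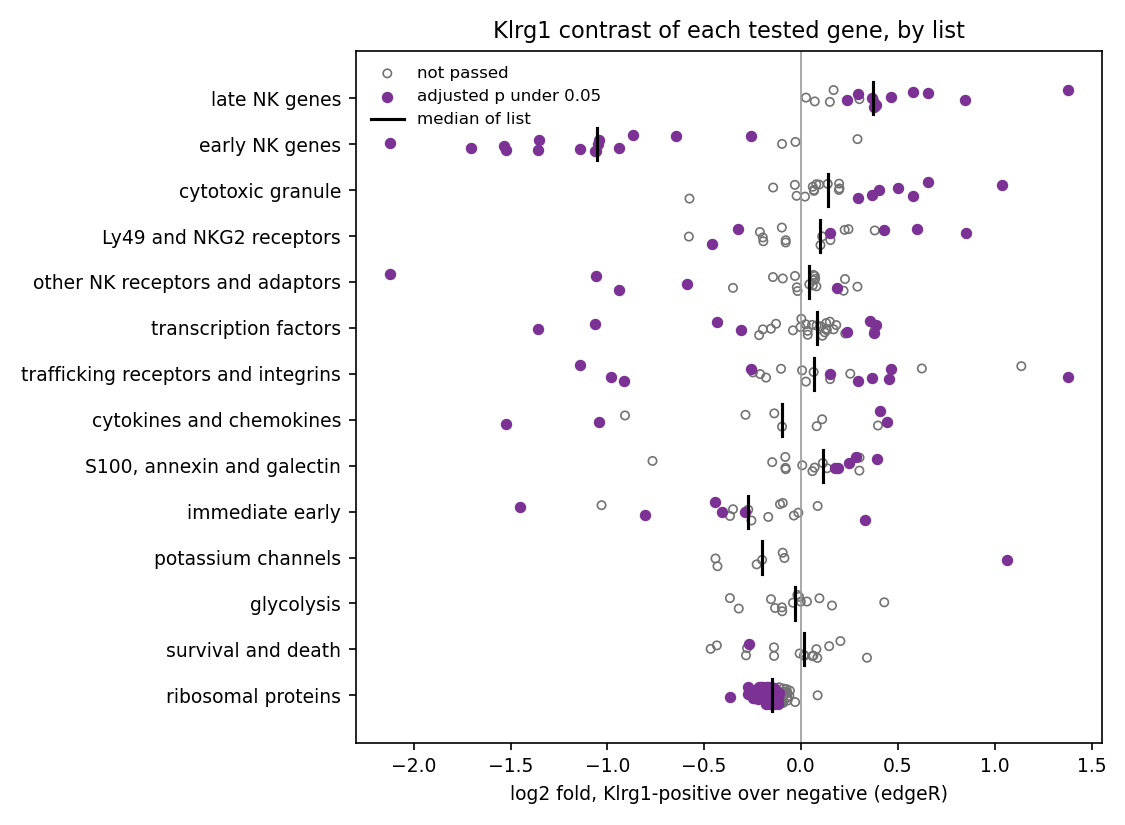
Log2 fold of each tested gene of 14 gene lists (x axis, Klrg1-positive over negative, edgeR); filled points passed the adjusted p of 0.05, open points did not, and bars are list medians. Late NK genes lie to the right with a median of 0.37, early NK genes to the left with a median of -1.05, and ribosomal protein genes in a narrow band with a median of -0.15.

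Outside the lists, the largest rises among genes of at least 20 CPM were in genes of low level. Cdc20b, at 69.5, 94.0 and 112 CPM in positive and 42.7, 50.2 and 54.7 CPM in negative cells, differed without overlap (log2 fold 0.90, SE 0.13, adjusted p = 3.0e-06 by edgeR), a call lost under 1 of 21 alternatives. Gpx8, a peroxidase gene that lies inside the Cdc20b locus on the opposite strand (chromosome 13, 113042753 to 113046410, GRCm38), was at 20.6 ± 5.17 against 8.11 ± 2.62 CPM (log2 fold 1.28, SE 0.31, adjusted p = 0.0099 by edgeR), and whether counting used strand is not given in the sources used here. Susd3 (1.04), Mfsd8 (0.99), Lztr1 (0.96), Ccnq (0.83) and Tmtc1 (0.77) were also higher, and their calls were lost under 7 to 14 alternatives. Slco3a1, a transporter gene, was lower at 4.15, 7.03 and 10.1 CPM in positive and 24.8, 23.5 and 29.7 CPM in negative cells, with no overlap (log2 fold -1.89, SE 0.30, adjusted p = 2.7e-05 by edgeR).

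Most of the largest falls were in transcripts known from other cell types, many of them held by few cells. Cd74, a chaperone of MHC class II, was at 44.6, 43.9 and 58.9 CPM in positive and 133, 328 and 163 CPM in negative cells (log2 fold -2.14, SE 0.14, adjusted p = 8.5e-15 by edgeR). H2-Aa, H2-Ab1 and H2-Eb1, the MHC class II chains, fell by 2.17, 2.08 and 1.93 on the log2 scale, Apoe by 2.74, Pf4 by 2.06, Iglc2 by 1.99 and Tmem176a by 2.72. Lyz2, a lysozyme gene of myeloid cells, was at 2.08, 6.15 and 125 CPM in positive and 153, 271 and 56.01 CPM in negative cells. It was lower in tags 1 and 2 and higher in tag 3, and its call (log2 fold -2.22, SE 0.40, adjusted p = 2.2e-04 by edgeR) was lost under 6 of 21 alternatives. Plac8, Ifitm3 and Ifitm2 fell by 1.77, 1.69 and 1.63. The share of cells with a Cd74 UMI was nearly the same in both classes, 12.97% ± 2.09 and 13.2% ± 1.07 (SD, n = 3), and 10 negative cells held 74.8% of the Cd74 UMIs of that class.

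Cells with at least 5 thinned UMIs of other types' markers numbered 6 of the positive (0.912%) and 44 of the negative cells (2.40%), with median depths of 4794 and 7058 UMIs against 3642 and 3848 in the rest. Without them, a comparison added after the values were seen, 214 of 9170 tested genes differed (2.33%), 82 higher (0.894%) and 132 lower (1.44%), of which 78 and 130 were among the original calls. H2-Aa and H2-Eb1 then had log2 folds of 0.35 and 0.29, H2-Ab1 and Cd74 of -0.16 and -0.17, and none of the 4 passed. In the negative class those cells held 77.5% of the Cd74, 83.4% of the H2-Aa, 96.4% of the Lyz2 and 93.8% of the Pf4 UMIs. The markers that chose them came from the lists of B, dendritic, myeloid, erythroid or platelet, plasma and stromal or endothelial cells. T cell and ILC1 markers were not among them. The markers used include Cd74, H2-Aa and H2-Ab1, so the comparison is not independent of these genes. Leaving out the deepest 10% of cells, which used no marker, gave 0.32 for H2-Aa and 0.28 for H2-Eb1. Without the marker-holding cells, the late NK list had 11 higher and 0 lower genes and the early list 0 higher and 15 lower.

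Some markers of other cell types were low or absent, while others were found in many cells of both classes. The T cell marker Trbc1 had a UMI in 46.8% ± 4.51 of positive and 49.7% ± 3.74 of negative cells (SD, n = 3). Trbc2 had one in 30.2% ± 5.35 and 29.8% ± 2.38. Of 10 T cell markers, 4 could be tested and Cd28 passed; their summed level was 497 to 528 CPM in positive and 590 to 690 CPM in negative cells, with Cd3e, Cd4, Cd8a, Cd8b1 and Cd5 at 0 UMIs in positive cells. Of 9 B cell markers, 2 were tested and Ighm passed as lower (-1.02), with sums of 139 to 195.9 and 162 to 348 CPM. Of 10 ILC1 markers, 8 were tested and 3 were lower (Tmem176a, Il7r and Ltb), with sums of 119 to 181 and 218 to 301 CPM. The calls of Tmem176a and Il7r were lost under 3 of 11 and 8 of 21 alternatives. Itga1 of the same list went the other way without passing, with a UMI in 3.48% of positive and 1.55% of negative cells. Rora, also not passed, had a UMI in 14.9% and 13.4%. Monocyte, macrophage and neutrophil markers summed to 42.5 to 181 and 214 to 527 CPM, with C1qa and Fcna at 0 in positive cells. Dendritic cell markers summed to 554 to 586 and 621 to 956 CPM, with Xcr1, Clec9a, Cd209a and Siglech at 0 in positive cells, and Irf8, which NK cells also express, was higher. All 10 NK cell markers were tested, 5 were higher and Xcl1 was lower. The part of other cell types in the differences of the early NK genes was not tested beyond alternatives that left cells out. The call of Il7r was lost without cells with a Cd3 UMI and when all 3 NK genes were required. Those of Cd28 and Ltb were lost under 0 of the 21 alternatives that gave an adjusted p. The comparison without marker-holding cells counted no T cell or ILC1 markers, although Cd28, Il7r and Ltb of the early genes are among these. It therefore cannot show the part of such cells. No doublet caller was run; barcodes with several tags were left out, and doublets within 1 tag remain.

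Leaving out single tags ended some of the calls named above, and the adjusted p-values of edgeR then lay between 0.055 and 0.97. Without tag 1, 21 of 77 called named genes were lost: Ahnak, Bcl2, Ccnd2, Ccnq, Cenpf, Fcer1g, Gpx8, Ifi27l2a, Ifitm2, Ifngr1, Il7r, Itgb2, Klra3, Lyz2, Lztr1, Mfsd8, S100a10, S1pr5, Susd3, Tmtc1 and mt-Co1. Without tag 2, 6 of 76 with a value were lost, namely Ahnak, Cenpf, Lztr1, Mfsd8, Susd3 and Tmtc1. Without tag 3, 10 of 77 were lost: Ahnak, Ccnd2, Fcer1g, Gpx8, Iglc2, Lztr1, Mfsd8, Susd3, Tmem176a and mt-Co1. Klra9, Klra4, Zeb2, Gzma, Kcnj8, Emb and Tcf7 passed without each tag.

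Within the positive cells, the number of Klrg1 UMIs went with further differences. The 197 cells with at least 2 Klrg1 UMIs were compared with the 461 cells that held exactly 1, which asks whether the amount matters beyond detection. Of 7445 genes tested, 5 were higher (0.0672%) and 3 lower (0.0403%) with more Klrg1. S100a6 stood at 846, 904 and 1003 CPM in the cells with 1 UMI and 1394, 1295 and 1149 CPM in those with at least 2, without overlap (log2 fold 0.50, SE 0.076, adjusted p = 3.2e-04 by edgeR). Emb fell further, from 171, 124 and 77.01 to 46.9, 54.4 and 32.6 CPM, also without overlap (log2 fold -1.50, SE 0.25, adjusted p = 9.1e-04 by edgeR). Gzma rose from 13754, 14094 and 14365 to 16341, 16895 and 15406 CPM (log2 fold 0.21, SE 0.041, adjusted p = 0.012 by edgeR), and its ranges were apart.

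Klra9 rose from 983, 809 and 1268 to 1240.3, 1179 and 1423 CPM and Ly6c2 from 738, 545 and 764 to 1009, 720.4 and 1051 CPM, higher in 3 of 3 tags although ranges overlapped (log2 folds 0.35 and 0.44, edgeR adjusted p = 0.012 for both). Klra4 fell from 1745, 1538 and 1376 to 1448, 1115 and 1069.6 CPM (log2 fold -0.35, SE 0.077, adjusted p = 0.036 by edgeR) and Ctla2a from 369.7, 399 and 285 to 218, 302 and 153 CPM (log2 fold -0.63, SE 0.13, adjusted p = 0.012 by edgeR). Ranges of both genes overlapped, though the direction was the same in 3 of 3 tags. The fifth higher gene, Slc8a1, was at 0 CPM in tags 1 and 2 of the higher class and rested on tag 3 alone. Many of these calls were not kept under other choices. Leaving out tag 1 gave 3 higher and 2 lower genes, of which 1 and 1 were among the original calls. Leaving out tag 2 gave 7 and 4 (3 and 2 shared) and leaving out tag 3 gave 3 and 1 (3 and 1 shared). Another random draw of the thinning gave 4 and 5 (2 and 2 shared). Without the tag block none of the 8 passed (0 higher and 0 lower, with 174 and 213 genes at an unadjusted p under 0.05).

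Placed beside the earlier classes of the same library, the means of several of these genes formed a graded series. Kcnj8 was at 17.02 ± 4.40 CPM in Cd27-only cells, 39.4 ± 8.89 in cells with both transcripts, 32.9 ± 4.49 in cells with neither, and 55.6 ± 10.1, 100.5 ± 19.1 and 159 ± 37.8 CPM in Itgam-only cells with 0, 1 and at least 2 Klrg1 UMIs (mean ± SD, n = 3). Emb ran the other way, with means of 802 ± 299.7 CPM in Cd27-only cells and 303 ± 106, 124 ± 47.2 and 44.6 ± 11.1 CPM along the Klrg1 classes. Tcf7 fell in the same order, from 171 ± 22.2 through 78.3 ± 8.46 and 45.3 ± 3.33 to 14.3 ± 5.44 CPM. From 1 to at least 2 Klrg1 UMIs, the step passed for Emb but not for Kcnj8 or Tcf7 (edgeR adjusted p = 0.35 and 0.068). The orders are a description of means, and the steps between Cd27 classes were not tested here.

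Klra4 did not follow that order. It was low in cells with neither transcript (1249.9 ± 25.6 CPM), in Cd27-only cells (1274 ± 93.5 CPM) and in cells with at least 2 Klrg1 UMIs (1211 ± 207 CPM), and highest in Itgam-only cells without Klrg1 (1832 ± 81.3 CPM, SD, n = 3). Klra8, another activating Ly49 gene, was at 1188 ± 175 CPM in Cd27-only cells and at 1614 ± 42.3, 1656 ± 125 and 1891 ± 270.3 CPM along the Klrg1 classes, where neighbouring values lay within their spread.

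**Figure D4:**
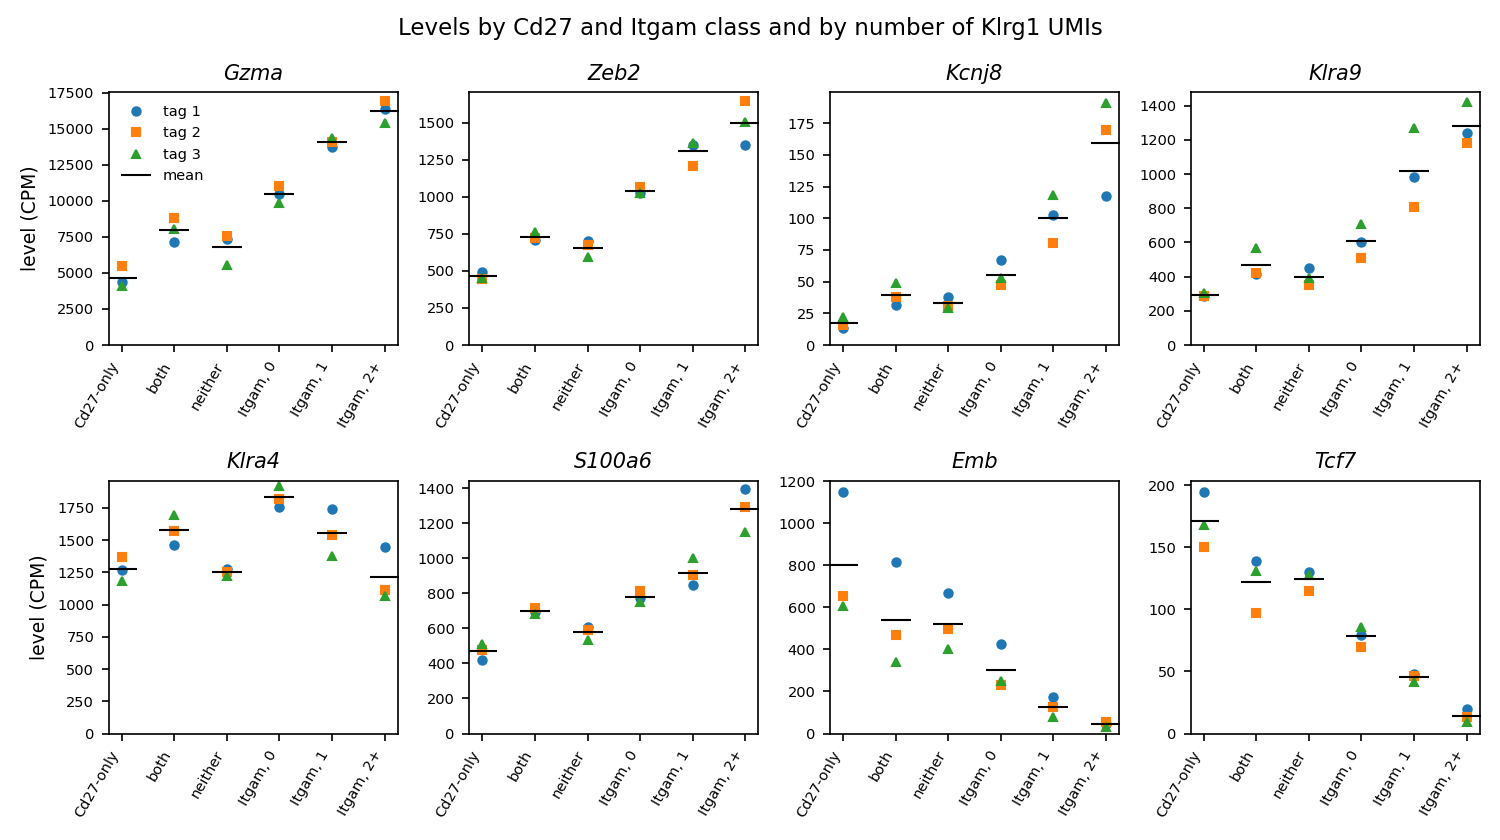
Levels of 8 genes (y axis, CPM, each panel with its own scale from 0) in NK cells that are Cd27-only, have both transcripts or neither, and in Itgam-only cells with 0, 1 or at least 2 Klrg1 UMIs (x axis); points are tags and bars their means. Gzma, Zeb2, Kcnj8, Klra9 and S100a6 are highest and Emb and Tcf7 lowest in the last class, while Klra4 peaks at 1832 CPM in Itgam-only cells with 0 Klrg1 UMIs.

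The same contrast was then made in NK cells with neither a Cd27 nor an Itgam UMI, 606 of which were Klrg1-positive and 3310 negative. This asks whether the difference by Klrg1 is another in cells without an Itgam UMI. The part of Itgam itself cannot be told apart, because the groups also differed in other transcripts. All cells with neither transcript held Il7r at 121 ± 21.4 and Cd74 at 633 ± 140 CPM (SD, n = 3). Itgam-only cells with 0 Klrg1 UMIs held them at 28.1 ± 15.1 and 208 ± 105 CPM. In the cells with neither transcript, 864 of 9949 tested genes differed by Klrg1 (8.68%), 357 higher (3.59%) and 507 lower (5.1%). A term for the difference between the contrasts passed for 15 genes, 2 with a higher fold in Itgam-only cells (0.0201%) and 13 with a lower one (0.131%). The 13 were Lgals1, Cma1, Gzma, Zeb2, Gzmb, Entpd1, S100a6, Cdc20b, Klra9, Anxa1, Fry, Klf12 and S100a9, and the 2 were Tox and Col3a1.

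Gzma shows the shape of the difference. In cells without an Itgam UMI it stood at 12633, 14269 and 11509 CPM in the Klrg1-positive cells of the 3 tags and at 6345, 6618 and 4818 CPM in the negative cells, a log2 fold of 1.09 (SE 0.060) against 0.50 (SE 0.028) in Itgam-only cells (difference -0.58, SE 0.084, adjusted p = 0.0036 by edgeR). The Klrg1-negative cells without an Itgam UMI were the lowest of the 4 groups and did not overlap with the others. Lgals1 had a log2 fold of 0.88 (SE 0.046) without and 0.28 (SE 0.037) with an Itgam UMI (difference -0.59, SE 0.065, adjusted p = 2.3e-04 by edgeR), and its levels in positive cells were 1919, 2006 and 1699.6 CPM without and 1822, 1834 and 1618 CPM with Itgam, ranges that overlapped. Tox, the factor lower in positive cells, had a log2 fold of -1.01 (SE 0.069) without and -0.43 (SE 0.073) with Itgam (difference 0.57, SE 0.10, adjusted p = 0.02 by edgeR). Few of the 15 calls were kept under some other choices. Without tag 1 the counts were 0 higher and 3 lower (0 and 3 shared with the original calls), without tag 2 they were 1 and 2 (0 and 2 shared), and without tag 3 they were 4 and 12 (1 and 9 shared). Another random draw of the thinning gave 1 and 6, of which 0 and 4 were shared. Without the tag block no gene passed (0 and 0, with 310 and 266 at an unadjusted p under 0.05), and without marker-holding cells 12 genes had a higher and 23 a lower fold.

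**Figure D5:**
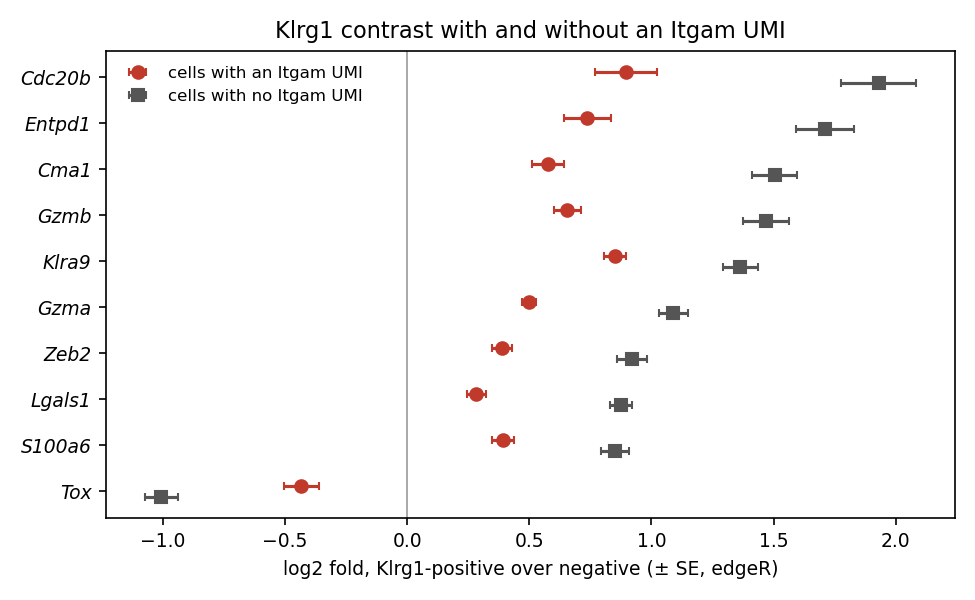
Log2 fold between Klrg1-positive and negative cells (x axis, ± SE, each from its own edgeR fit) for 10 genes whose contrast differed between Cd27-negative NK cells with (red) and without (grey) an Itgam UMI. All 10 genes keep their direction, and each grey point lies farther from 0 than its red point, with Cma1 at 1.51 against 0.58.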

How the data were processed

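One library of splenic NK cells (10x 3′ chemistry) was analysed. The authors deposited counts (UMIs per gene and barcode) and tag counts, made with Cell Ranger 7.0.0 per the file headers; mm10 and Seurat are named in the submitters' processing notes. The gene annotation is not given in the sources used here, nor is the treatment of introns. All further steps start from the deposited counts. Of 16384 barcodes, 642 fell outside the limits on genes and mitochondrial share, 3540 carried several tags and 510 none, which left 11692. Of these, 8978 met the NK rule, and 1028 of them had under 2500 UMIs and were left out. No doublet caller was run.

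Classes were read after thinning (seed 1), and tests used the unthinned counts summed per tag and class. edgeR 4.0.16 (R 4.3.3, limma 3.58.1) was run with TMM scaling, its own filter on low counts, tag as block, the quasi-likelihood test and Benjamini-Hochberg adjustment over all genes tested; the SE is the absolute log2 fold divided by the root of F. Means ± SD are over 3 tags. Both classes of a tag are cells that were tagged together, which pairs them by design: deviations from the class means correlated at 0.223, 0.0722 and 0.0675 within tags and at -0.151 to 0.0732 between tags. On simulated counts for 9141 genes, the Klrg1 contrast recovered 42.7% of genes changed by 0.5 and 86.9% of those changed by 1 on the log2 scale, with 8 false calls. The simulation gave every gene the same spread and no difference between tags, so recovery and false calls in the real data may differ. Intervals and limits cover counting error only.

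Genes were named by rule: up to 12 per direction with the largest folds among those that passed, reached 20 CPM and moved alike in 3 of 3 tags; up to 4 per list with the smallest p; a set of known NK genes; and up to 5 per direction in the other comparisons. Other list members were named after their values were seen, and some are not reported here. The cells, lists and rule were chosen with earlier results of these data known. Alternatives covered thinning, class limits, filters, scaling, DESeq2 1.42.0, the block and each tag; the one without marker-holding cells was added after seeing the data. Gene positions come from a mouse annotation of GRCm38 that held 32158 of 32285 identifiers, and start regions from RefSeq, aligned with Biopython 1.88. Python 3.11.15 with numpy 2.4.6, scipy 1.17.1, pandas 2.3.3 and matplotlib 3.10.9 was used.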

Additional observations from a re-analysis of the deposited data

Results flagged for a closer look

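The difference between Klrg1-positive and negative cells was smaller in Itgam-only cells than in cells without an Itgam UMI for 9 named genes, by the interaction term of edgeR. The difference of the log2 folds was -0.58 for Gzma (adjusted p = 0.0036), -0.81 for Gzmb (0.009) and -0.92 for Cma1 (0.0027), which encode granule proteases. It was -0.53 for the repressor gene Zeb2 (0.009) and -0.51 for the receptor gene Klra9 (0.041). For S100a6 it was -0.45 (0.019), for the galectin gene Lgals1 -0.59 (2.3e-04), for Entpd1 -0.97 (0.009) and for Cdc20b -1.04 (0.041). These 9 genes were higher in positive cells in both settings.

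Tox, lower in positive cells in both settings, had a difference of 0.57 (adjusted p = 0.02 by edgeR), a smaller fall in Itgam-only cells. Col3a1, a collagen gene, had a difference of 6.33 (adjusted p = 0.016 by edgeR), but it was under the filter of the Itgam-only comparison and its largest level in any tag of the 4 groups was 38.2 CPM, in 1 tag of the Klrg1-negative cells without Itgam. In Itgam-only positive cells its level was 18.4 CPM in tag 2 and lower in the others.

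These differences depended on the choice of cells and tags: of the 2 higher and 13 lower calls, another random draw of the thinning shared 0 and 4, and leaving out tag 1, tag 2 or tag 3 shared 0 and 3, 0 and 2, and 1 and 9.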

How the results depend on the processing

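Against 100 genes higher and 183 lower, thinning to 1500 UMIs gave 53 and 78, requiring at least 2 Klrg1 UMIs 53 and 118, requiring at least 2 Itgam UMIs 27 and 36, and DESeq2 28 and 48, where 8306 of 9314 adjusted p-values were NA. Requiring all 3 NK genes gave 66 higher genes, and leaving out the filter on low counts gave 284 lower ones. Leaving out each tag in turn gave 38 to 92 higher and 94 to 183 lower, with 38 and 94 without tag 1. Another thinning seed shared 68 of the 100 and 143 of the 183 calls. For the number of Klrg1 UMIs (5 higher, 3 lower), another seed gave 5 lower (2 of the 5 higher and 2 of the 3 lower calls shared), and leaving out each tag gave 3 to 7 higher and 1 to 4 lower. For the difference by Itgam (2 higher, 13 lower), another seed gave 1 and 6 (0 and 4 shared), leaving out each tag gave 0 to 4 higher (0 without tag 1, with 384 at an unadjusted p under 0.05) and 2 to 12 lower, and leaving out marker-holding cells gave 12 and 23.

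Without the replicate block, which treats the tags as unpaired, the Klrg1 comparison gave 27 and 55 calls (366 and 454 at an unadjusted p under 0.05), and the comparisons by number of Klrg1 UMIs and by Itgam gave 0 and 0 with edgeR (174 and 213, and 310 and 266, at an unadjusted p under 0.05).

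Directions reversed for H2-Aa (0.32 without the deepest 10% of cells, 0.35 without marker-holding cells), H2-Eb1 (0.28 and 0.29), Iglc2 (0.089 without marker-holding cells), Rps19 (0.0021 with classes from unthinned counts) and Cenpf (-0.49 with another seed); the cause was not tested. Of 77 named genes that passed, 20 passed under every alternative that gave a value, among them Klra9, Gzma, Gzmb, Kcnj8, Cx3cr1, Emb and Tcf7, and 57 were lost under at least 1. Depth limits the low genes: 3 UMIs correspond to 1.07 CPM in positive and 0.358 CPM in negative cells.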
